A study of Mus musculus with 8 samples.

Results

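The genes of oxidative phosphorylation were examined in regulatory T cells (Treg cells) from spleen and tumor. They were taken by symbol from the normalized count table, which lists genes with more than 80 counts in total: all mitochondrially encoded genes (mt-), complex I subunits and assembly factors (Nduf), succinate dehydrogenase (Sdha to Sdhd), the Uqcr genes of complex III, Cox4 to Cox8 of complex IV, and the Atp5 genes of ATP synthase. This gave 121 of the 16611 genes in that table. Of these, 27 are encoded by mitochondrial DNA (13 mRNAs and 14 tRNAs) and 94 by nuclear DNA. The nuclear genes comprise 79 subunit genes, 8 complex I assembly factors, and 7 pseudogenes or related symbols. The subunit genes were assigned to complexes by symbol alone, without a check of where each protein is found. This put 37 in complex I, 4 in complex II, 8 in complex III, 15 in complex IV and 15 in complex V. A further 14 symbols fitted the same patterns among the 49212 counted genes but had 80 counts or fewer, 2 of them 0 counts in every library. These were Cox7b2, Cox8b, Cox8c, Ndufa4l2, 2 pseudogenes and 8 mitochondrial tRNAs. The mitochondrial rRNA genes were not analysed here.

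RNA-seq was done on CD45+CD44+YFP+CD4+CD3+ cells, called effector Treg (eTreg) cells, sorted from C57BL/6 mice. Every mouse carried the Foxp3YFP-Cre allele, which expresses Cre and YFP in cells that use the Foxp3 promoter. In KO mice (Prdm1fl/fl Foxp3YFP-Cre), Cre deletes a floxed part of Prdm1, the gene of the transcriptional repressor Blimp-1, and Foxp3YFP-Cre mice without floxed Prdm1 were the WT controls. All mice received subcutaneous B16-OVA melanoma cells on day 0 and NP-OVA in adjuvant on days 0 and 7, and tumors were at most 1.5 cm3. The 4 groups, KO spleen, WT spleen, KO tumor and WT tumor, had 2 libraries each. The labels do not say whether a library is a single animal or a pool, nor give an age, so p-values measure the spread between these libraries, part of which may be technical.

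Between 27834676 and 43903859 reads were counted on genes per library. Levels are given as CPM, counts scaled to a common library total with TMM normalization. Prdm1 was still counted in KO libraries (40.7 and 53.4 CPM in spleen, 90.7 and 75.1 in tumor) beside WT (54.1 and 21 in spleen, 108.4 and 192.0 in tumor). These counts cover the whole gene, including exons outside the floxed part, so they do not check the deletion. The tumor libraries were not Treg RNA alone. The 6 melanoma markers summed to between 830 and 3198 CPM in tumor and at most 6.74 CPM in spleen, and all 6 had counts in both tumor groups. The 7 macrophage markers summed to between 440 and 13969 CPM in tumor and between 259 and 1560 CPM in spleen. CD8 T cell markers (Cd8a and Cd8b1) reached 406 and 2220 CPM in the KO tumor libraries, in which Foxp3 was at 10.2 and 2.99 CPM and Cd4 at 148 and 66.2 CPM. In WT tumor, Foxp3 was at 25.5 and 60.5 CPM and Cd4 at 807 and 1086 CPM. In bulk RNA, fewer cells that express a gene and less of its RNA per cell cannot be told apart.

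Oxidative phosphorylation moves electrons from NADH (complex I) and succinate (complex II) through complexes III and IV to oxygen, and the proton gradient this builds drives ATP synthase (complex V). Its subunits come from separate genomes. Mitochondrial DNA, transcribed from long polycistronic precursors by its own polymerase, encodes the hydrophobic core subunits of complexes I, III, IV and V, whereas complex II and all remaining subunits are nuclear, and the products of both genomes are assembled together. Treg cells are known to depend on mitochondrial respiration for their suppressive function.

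Part of the mitochondrial genome also exists as near-identical copies in nuclear DNA, which bears on what counts of mitochondrial genes mean when only uniquely placed reads are kept. The gene mt-Nd3 (complex I, MT:9459-9806, plus strand) and its annotated copy Gm28438 on the minus strand of chromosome 1 (chr1:24612775-24613119) are shown for this reason. Over 345 aligned bases, the annotated transcripts differed at 1 base. The 62 bases from the 5′ end of the coding sequence are given for each, with the differing base in capitals, a T3C change counted from 1 at the 5′ end of mt-Nd3.
mt-Nd3: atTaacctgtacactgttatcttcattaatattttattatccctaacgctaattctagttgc
Gm28438: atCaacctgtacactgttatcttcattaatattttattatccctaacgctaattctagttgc
The transcripts of mt-Co2, mt-Atp6, mt-Co3 and mt-Nd4l differed at 0 bases from Gm28661, Gm10925, Gm28437 and Gm10222 over 681, 678, 783 and 294 aligned bases. All of these copies lie next to each other on the minus strand of chromosome 1, between Gm10222 (chr1:24612407-24612700) and Gm28661 (chr1:24614885-24615565). Coordinates are those of GRCm38, the build of the counts, and transcripts are those of GENCODE M21.

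Short promoter motifs were searched in the nuclear subunit genes. The upstream regions of Cox6a1, a complex IV subunit, and Sdhd, a membrane anchor of complex II, are shown because each holds motifs of both NRF1 and the ETS factor GABPA, which are known regulators of nuclear respiratory genes. The 250 bases before the start of each gene are from RefSeq (GRCm38.p6), with motif matches on either strand in capitals. The regions are chr5:115348959-115349208 for Cox6a1 and chr9:50603850-50604099 for Sdhd, both on the minus strand.
Cox6a1: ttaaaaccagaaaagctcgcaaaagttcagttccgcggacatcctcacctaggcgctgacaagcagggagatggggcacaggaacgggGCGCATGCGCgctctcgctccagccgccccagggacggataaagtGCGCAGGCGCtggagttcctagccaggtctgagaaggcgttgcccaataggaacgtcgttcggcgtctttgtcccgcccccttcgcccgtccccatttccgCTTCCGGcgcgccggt
Sdhd: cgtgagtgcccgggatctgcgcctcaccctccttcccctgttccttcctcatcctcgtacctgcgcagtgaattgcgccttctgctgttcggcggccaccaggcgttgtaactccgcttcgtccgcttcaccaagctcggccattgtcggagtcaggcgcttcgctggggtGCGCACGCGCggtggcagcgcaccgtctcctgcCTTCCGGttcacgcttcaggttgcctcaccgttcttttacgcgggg
Of the 79 nuclear subunit genes, 65 had a promoter window in that table (250 bases before to 50 after the start). The NRF1 motif GCGCNTGCGC was found in 17 of these 65 (26.2%) and in 5.19% of the windows of 27025 genes. The ETS motif CCGGAAG was found in 16 (24.6%) against 9.93% of all genes, and the YY1 motif AAGATGGC in 9 (13.8%) against 3.19%. At least 1 of the 3 motifs was present in 36 subunit genes (55.4%) and in 16.4% of all genes. The remaining subunit genes held none of the 3, and no test was made of these shares. Both strands were searched and a match is a stretch of letters, not a measured binding site.

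Messenger RNA of mitochondrial origin took a smaller share of the tumor libraries than of the spleen libraries, while the share of nuclear genes of the same complexes overlapped between tissues. Mitochondrially encoded genes took 1.53% and 1.73% of all gene counts in the KO spleen libraries and 1.32% and 2.49% in WT spleen. They took 1.06% and 1.07% in KO tumor and 0.917% and 0.696% in WT tumor. All 4 tumor libraries were thus below all 4 spleen libraries (mean 0.934% ± 0.173 against 1.77% ± 0.509, SD, n = 4 each). The difference was -0.832 percentage points (two-sided exact permutation test, p = 0.0286, the smallest possible for 4 against 4). This and the other permutation tests between tissues exchanged libraries without regard to genotype. A permutation within genotypes was not run, and its smallest possible p is larger. The 94 nuclear genes took 1.65% and 1.56% in KO spleen, 1.59% and 2.55% in WT spleen, 1.38% and 1.93% in KO tumor, and 1.69% and 1.57% in WT tumor. For these the groups overlapped and the difference of -0.195 percentage points was within the spread (exact permutation p = 0.657).

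**Figure D1:**
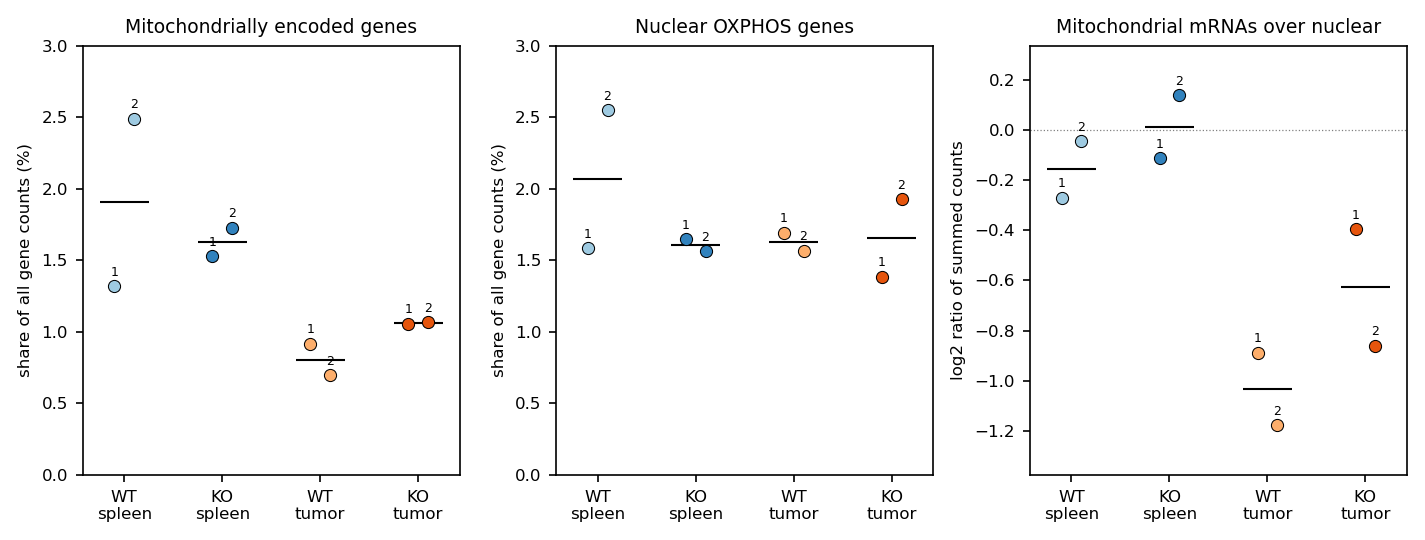
Share of all gene counts on mitochondrially encoded genes (left, %), share on the 94 nuclear OXPHOS genes (middle, %) and log2 ratio of mitochondrial mRNA counts to nuclear OXPHOS counts (right). Points are single libraries numbered by replicate and lines are means of 2. In the left and right panels every tumor library lies below every spleen library, and in the middle panel they overlap.

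The ratio within each library gave the same order. The log2 ratio of the summed counts of the 13 mitochondrial mRNAs to those of the 94 nuclear genes was -0.11 and 0.14 in KO spleen and -0.27 and -0.05 in WT spleen. It was -0.40 and -0.86 in KO tumor and -0.89 and -1.18 in WT tumor. Tumor libraries averaged -0.83 ± 0.32 and spleen libraries -0.07 ± 0.17 (SD, n = 4 each), a difference of -0.76, or 0.592 times the spleen ratio (exact permutation p = 0.0286; Benjamini-Hochberg adjusted p = 0.0457 over the 8 library measures compared between tissues, several of which share counts). Within each genotype both tumor libraries were below both spleen libraries, although 2 against 2 cannot give an exact p below 0.333.

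The difference depended on which genes formed the ratio. It was -0.69 with medians of log2 CPM in place of sums and -0.59 with only the 39 nuclear subunit genes whose exons span under 1500 bases, and the exact permutation p was 0.0857 in both cases. With only the 6 mitochondrial mRNAs that share under 10% of their sequence windows with nuclear copies it was -0.79, and with counts on those copies added it was -0.77 (exact permutation p = 0.0286 for each). Macrophage marker sums were 13969 and 1555 CPM in KO tumor and 2828 and 440 CPM in WT tumor, with 1555 and 440 inside the spleen range. Melanoma sums were 3198 and 830 CPM in KO tumor and 2077 and 1140 CPM in WT tumor, all far above spleen. The T cell gene Cd3e was at 315 and 1023 CPM in KO tumor and 927 and 1427 CPM in WT tumor. In spleen it was at 1252 to 1444 CPM. The part of other cells in the difference was not tested.

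By complex, the ratio of mitochondrial to nuclear subunit counts was lower in tumor for complexes III and V without overlap. For complex III, with mt-Cytb as its sole mitochondrial subunit, the log2 ratio was 1.04 and 1.16 in KO spleen, 0.97 and 0.89 in WT spleen, 0.53 and 0.21 in KO tumor and 0.29 and -0.29 in WT tumor. The difference was -0.83 (exact permutation p = 0.0286, adjusted p = 0.0457). For complex V (mt-Atp6 and mt-Atp8) it was -0.94 (exact permutation p = 0.0286, adjusted p = 0.0457), from -5.30 ± 0.34 in spleen to -6.23 ± 0.19 in tumor (SD, n = 4 each). For complex IV the difference was -0.67 (exact permutation p = 0.0571, adjusted p = 0.0762), with replicate 1 of KO tumor at 1.12 and replicate 2 of WT spleen at 0.81. For complex I it was -0.59 (exact permutation p = 0.0857, adjusted p = 0.0980), with replicate 1 of KO tumor at -0.08 inside the spleen range of -0.16 to 0.23.

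The 13 mitochondrial mRNAs were each examined across the 8 libraries. In 8 of them (mt-Nd2, mt-Nd3, mt-Nd4, mt-Cytb, mt-Co2, mt-Co3, mt-Atp6 and mt-Atp8) all 4 tumor libraries lay below all 4 spleen libraries, against a background of 11.9% of the 17870 genes tested, and in 0 did they lie above (background 14.1%). Leaving out replicate 2 of WT spleen kept the count at 8, with a background of 18.1%. Of these 8, mt-Co2, mt-Co3, mt-Atp6 and mt-Nd3 shared 98.0% to 100% of their sequence windows with nuclear copies, and mt-Nd4 62.2%. Among the mRNAs with no shared window, mt-Cytb and mt-Atp8 separated the tissues, whereas mt-Nd1 and mt-Nd6 overlapped. The mRNAs come from common precursors, so the 8 are not separate results. Of the 79 nuclear subunit genes, 1 lay wholly below (Ndufs7) and 3 wholly above (Cox4i2, Atp5b and Ndufv1), and among the remaining members Ndufaf1, Ndufaf8 and Atp5sl lay below. None of the 14 tRNAs lay wholly on either side.

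The mRNA with the largest fitted tissue difference in each genotype was mt-Nd3, a core subunit of the membrane arm of complex I. Its level was 34.4 and 32.5 CPM in KO spleen, 28.9 and 89.4 in WT spleen, 18.1 and 22.4 in KO tumor, and 15.3 and 13.7 in WT tumor. Every tumor library was below every spleen library, and replicate 2 of WT spleen was far above the others. The log2 fold change of tumor over spleen was -2.04 ± 0.57 (SE) in WT and -0.72 ± 0.24 in KO, with edgeR adjusted p = 0.0687 and 0.127. With a replicate block in the WT comparison it was called (edgeR adjusted p = 0.0438, with 8.91% of all genes called in that fit). In a fit of both genotypes together, added after the data were seen, its log2 fold change was -1.38 ± 0.41 (edgeR adjusted p = 0.0482), and it was the only member called, against a background of 16.5%. This call rested on the full set of libraries. Leaving out each in turn gave -1.53 to -0.84, and mt-Nd3 was called only without replicate 1 of WT spleen. Without replicate 2 of WT spleen the fold change was -0.84, under the fold limit.

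The mitochondrial mRNA with the most counts was mt-Co1, the catalytic core subunit of complex IV, which took between 35.9% and 46.0% of mitochondrial mRNA counts. This is a share of uniquely placed reads, not of transcripts. Nuclear copies held 51.1% of the sequence windows of mt-Co1 and nearly all of those of some other mRNAs. The level of mt-Co1 was 6291 and 6661 CPM in KO spleen, 4858 and 8947 in WT spleen, 5314 and 4825 in KO tumor and 3722 and 3314 in WT tumor. The tissues overlapped for mt-Co1 only through replicate 1 of KO tumor, which was above replicate 1 of WT spleen. For mt-Cytb, the core of complex III, the values were 3455 and 3375 CPM in KO spleen, 3015 and 5167 in WT spleen, 2304 and 2284 in KO tumor and 2339 and 1463 in WT tumor. All tumor values of mt-Cytb were lower than all spleen values. For mt-Nd1, a complex I subunit of the quinone-binding region, the values were 2035 and 2396 CPM in KO spleen, 1806 and 4350 in WT spleen, 1941 and 1766 in KO tumor and 1676 and 1106 in WT tumor. Their median levels per length were the highest of the 13, at 3292 (mt-Co1), 2340 (mt-Cytb) and 1958 (mt-Nd1) CPM per kb of exon, and together they took between 74.2% and 82.0% of mitochondrial mRNA counts.

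The mitochondrial mRNAs that share nearly all of their sequence with nuclear copies had low levels per length. Between 98.0% and 100% of 50-base windows of mt-Co2, mt-Co3, mt-Atp6, mt-Nd3 and mt-Nd4l were also found in an annotated nuclear transcript, and their median levels were between 3.83 and 146 CPM per kb. The mRNAs with no shared window were mt-Nd1, mt-Cytb, mt-Nd6 and mt-Atp8, at 1958, 2340, 372 and 61.0 CPM per kb. Thus mt-Atp8 was low without a shared window, but it spans 204 bases and overlaps mt-Atp6 by 43. In replicate 1 of KO spleen, Gm28661 had 3305 counts, Gm28437 12854 and Gm10925 4409. Reads that fit both places were not kept as unique. Levels of these mRNAs therefore cannot be set against those of mt-Co1 (itself 51.1% shared), the unshared mRNAs or the nuclear subunits. Their tissue differences followed the same direction as those of the unshared mRNAs. Strand use in counting is not stated, so mt-Nd6, on the other strand from mt-Nd5 and overlapping it by 14 bases, is also uncertain.

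**Figure D2:**
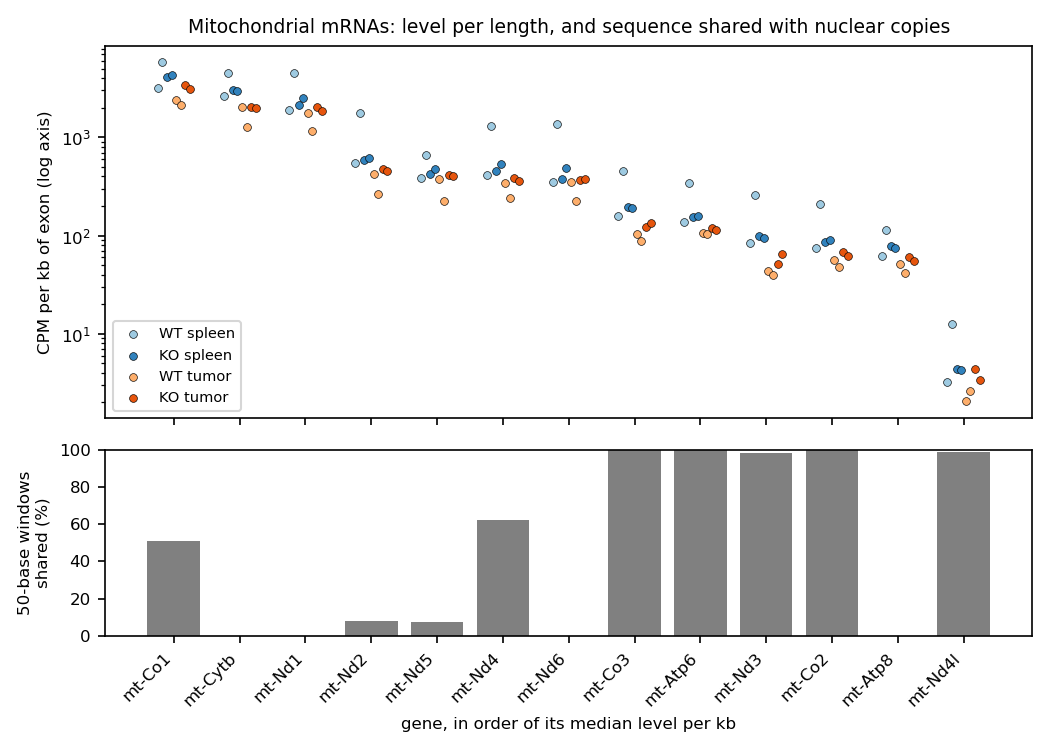
Level of each mitochondrial mRNA per kb of exon (top, CPM per kb on a log axis, 1 point per library, colored by group) and the percent of its 50-base windows found in annotated nuclear transcripts (bottom). The mRNAs are ordered by their median level; mt-Co2, mt-Co3, mt-Atp6, mt-Nd3 and mt-Nd4l have 98.0% or more shared windows and medians of 146 CPM per kb or less.

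In the comparison of WT tumor with WT spleen, 0 of 120 members tested were called by edgeR's quasi-likelihood test (adjusted p under 0.05 and a log2 fold change beyond 1 in size), against 5.97% of all genes. DESeq2 called 2 members, mt-Nd3 and mt-Tc, both lower (background 9.91%). At an unadjusted p of 0.05, 11 members passed (background 20.5%), all lower (background 10.1%): 7 of the 13 mRNAs and 4 of the 14 tRNAs. The 13 mitochondrial mRNAs were all lower, with a median log2 fold change of -1.45 beside -0.04 over all genes tested. The mRNAs with p below 0.05 were mt-Nd3, mt-Co3 (-1.67 ± 0.55, SE), mt-Nd2 (-1.76 ± 0.62), mt-Co2, mt-Nd4, mt-Nd6 and mt-Atp6. The 78 nuclear subunit genes tested had a median of -0.38, with 17 higher and 61 lower. Without replicate 2 of WT spleen the nuclear median turned to 0.29, and that of the mitochondrial mRNAs was -0.42. Without replicate 1 of WT spleen, 19 of 121 members were called, beside 7.87% of all genes in that fit.

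In KO tumor compared with KO spleen, the median log2 fold changes of mitochondrial mRNAs and nuclear subunits had opposite signs. They were -0.39 (13 of 13 lower) and 0.22 (63 of 79 higher), beside 0.01 over all genes. The nuclear median was 0.06 without replicate 2 of KO tumor and 0.38 without replicate 1, and the mitochondrial median was -0.10 relative to a trend on GC content. By edgeR, 0 of 121 members were called (background 1.35%), and DESeq2 called Cox4i2 and Cox6a2, both higher (background 19.7%). Of these, Cox4i2 had 2 and 0 counts in KO spleen, under the floor of 3. At an unadjusted p of 0.05, 14 members passed (background 31.0%), 11 of them higher (background 17.4%) and 3 lower (background 13.7%). The 11 were nuclear subunit genes, among them Cox5a, Cox5b and Cox7a2 of complex IV, Uqcrfs1 and Uqcrq of complex III, Sdhb of complex II and Atp5b of complex V. Those lower were mt-Co3, mt-Nd3 and Atp5sl. The share of members that passed was below the share of all genes, so no count here sets the members apart.

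**Figure D3:**
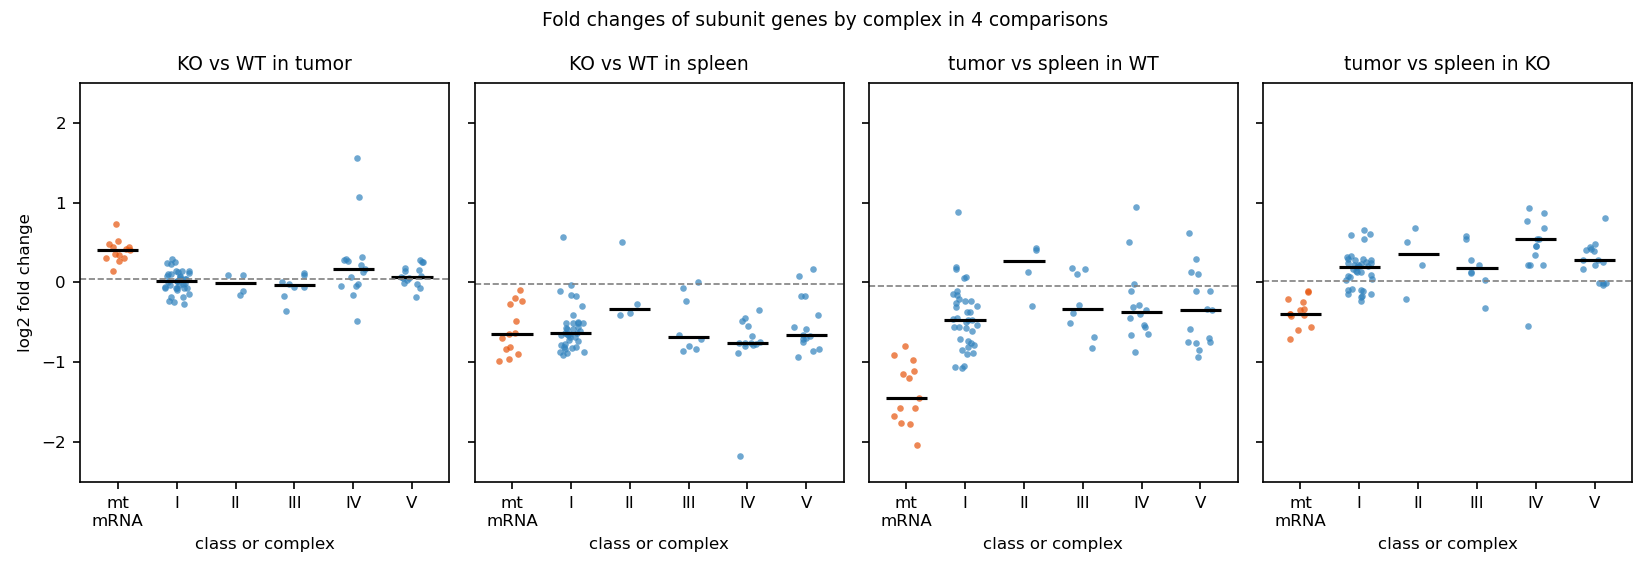
log2 fold change of each subunit gene by complex in 4 comparisons (points: genes, with mitochondrial mRNAs in orange and nuclear subunits in blue; black bars: medians; dashed line: median of all genes tested). The median of the mitochondrial mRNAs lies below that of each nuclear complex in both tumor against spleen panels, and 2 points (Cox4i2 and Cox6a2 in KO) lie outside the axis.

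Among the nuclear genes without overlap between tissues was Atp5b (chr10:128083273-128090391, plus strand), which encodes the catalytic beta subunit of ATP synthase. It was at 1403 and 1196 CPM in KO spleen, 1359 and 1093 in WT spleen, 2102 and 2396 in KO tumor and 2085 and 1666 in WT tumor. All tumor values were above all spleen values, and replicate 2 of WT spleen was the lowest. The log2 fold change was 0.80 ± 0.25 (SE) in KO and 0.62 in WT, and 0.70 ± 0.22 with both genotypes in the fit (edgeR adjusted p = 0.0577). Ndufv1, the NADH-binding subunit of complex I, was also higher in every tumor library, by a small margin. It was between 119.9 and 129.0 CPM in spleen and between 130.4 and 164.1 CPM in tumor.

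For Sdhb, the iron-sulfur subunit of complex II, levels were 232 and 208 CPM in KO spleen, 219 and 355 in WT spleen, 326 and 372 in KO tumor and 415 and 361 in WT tumor. The tissues overlapped through replicate 2 of WT spleen, which was above replicate 1 of KO tumor. Sdhd was at 177 to 259 CPM in spleen and 219 to 274 CPM in tumor, and Sdhc, the other membrane anchor, at 98.2 to 169 CPM and 101 to 117 CPM. Complex II as a sum was at 1029 to 1084 CPM in spleen and 1171 to 1311 CPM in tumor, and so did not overlap. The narrow spleen range of this sum hides opposite moves in replicate 2 of WT spleen. There Sdha was the lowest of spleen (261 CPM), and Sdhb, Sdhc and Sdhd were the highest of spleen. The core proteins of complex III, Uqcrc1 and Uqcrc2, varied little. Uqcrc1 was between 414 and 504 CPM over the 8 libraries and Uqcrc2 between 186 and 249 CPM.

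For complex IV the sums were 2460 and 2143 CPM in KO spleen, 2221 and 5390 in WT spleen, 2509 and 3472 in KO tumor and 2886 and 2676 in WT tumor. Cox5a, a structural subunit, was at 150 and 130 CPM in KO spleen, 130 and 279 in WT spleen, 210 and 296 in KO tumor and 228 and 178 in WT tumor. Apart from replicate 2 of WT spleen, every tumor value of Cox5a was above every spleen value. In KO the log2 fold change was 0.86 ± 0.25 (SE) with an edgeR adjusted p = 0.101. Cox4i1, the ubiquitous form of subunit 4, ranged from 372 to 513 CPM in the 7 libraries other than replicate 2 of WT spleen, which was at 864 CPM.

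Tissue-restricted isoforms were at the bottom of the range. Cox4i2, the subunit 4 isoform known from lung and hypoxia, had 2 and 0 counts in KO spleen, 7 and 9 in WT spleen, 83 and 13 in KO tumor and 20 and 10 in WT tumor. All tumor counts were higher than all spleen counts, by as little as 10 against 9, and no fold change is given because KO spleen was under the floor of 3 counts. Cox6a2, the heart and muscle form of subunit 6a, was at 0.17 and 0.53 CPM in KO spleen, 0.12 and 3.07 in WT spleen, 4.35 and 5.27 in KO tumor and 0.97 and 3.58 in WT tumor. Its overlap came from replicate 2 of WT spleen, and its KO log2 fold change was 3.78 ± 0.73 (SE, edgeR adjusted p = 0.0639). Cox7a1, another muscle form, was at 0.71 to 1.46 CPM in spleen and 1.20 to 2.29 CPM in tumor. Cox6b2 stayed between 0.52 and 0.98 CPM. The ubiquitous partners Cox6a1, Cox6b1 and Cox7a2 were at no less than 245, 262 and 121 CPM in any library. Melanoma marker sums were above spleen in every tumor library. They were 3198 and 830 CPM in KO tumor and 2077 and 1140 CPM in WT tumor. Cox4i2 was highest in replicate 1 of KO tumor, where the melanoma sum was the highest. Cox6a2 was highest in replicate 2 of KO tumor, where the melanoma sum was the lowest of tumor. The macrophage sum was above spleen in replicate 1 of KO tumor and at 1555 CPM in replicate 2, inside the spleen range. The part of these markers was not tested.

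In KO compared with WT tumor, no difference was found for any member. By edgeR 0 of 121 members were called (background 0%), 0 passed an unadjusted p of 0.05 (background 9.87%) and DESeq2 called 0 (background 4.68%). The median log2 fold change was 0.04 for nuclear subunit genes, as for all genes, and 0.41 for mitochondrial mRNAs, of which 13 of 13 were higher. The nuclear median was 0.20 without replicate 1 of KO tumor and -0.19 without replicate 2, so its sign depended on single libraries. The mitochondrial median was 0.13 without replicate 2 of WT tumor and 0.60 without replicate 1. The range of single mRNAs was 0.14 for mt-Atp6 to 0.73 for mt-Nd4l, with adjusted p from 0.732 to 0.948 by edgeR. The mitochondrial share of counts was 1.06% ± 0.00764 in KO and 0.807% ± 0.157 in WT (SD, n = 2 each), which did not overlap (exact permutation p = 0.333, the smallest possible). The log2 ratio of mitochondrial to nuclear counts differed by 0.41, and by 0.17 or 0.64 when replicate 1 or replicate 2 of KO tumor was left out. In simulated data with the same spread, 41% of genes changed by 3 on the log2 scale were recovered in this comparison and 1% of those changed by 1.5. The changed genes were drawn from all genes tested, and for such genes moderate differences were mostly missed. What was detectable for the members alone was not simulated.

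**Figure D4:**
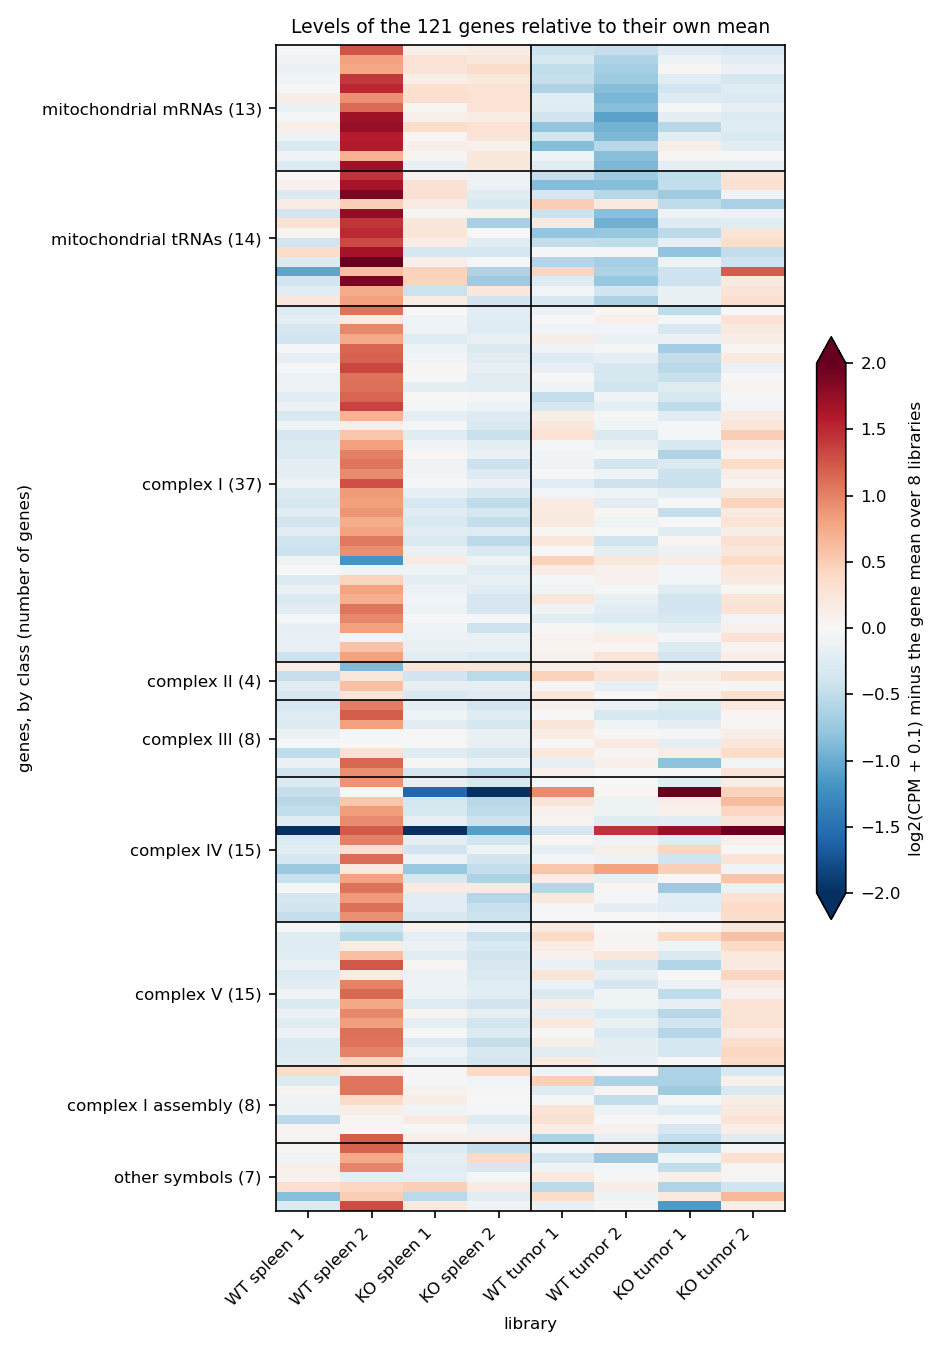
Level of each of the 121 genes in the 8 libraries as log2(CPM + 0.1) minus its mean over libraries (red higher, blue lower), with genes grouped by class and spleen libraries on the left. Replicate 2 of WT spleen is the highest library for 13 of 13 mitochondrial mRNAs and 59 of 79 nuclear subunits. The share of all genes highest in it was not counted. For 8 of the 13 mitochondrial mRNAs every tumor library is lower than every spleen library (background 11.9%).

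In KO compared with WT spleen, the sign of both main classes depended on replicate 2 of WT spleen. By edgeR 0 of 120 members were called (background 0%), 0 passed an unadjusted p of 0.05 (background 2.95%) and DESeq2 called 0 (background 0.416%). Medians were -0.65 for the 78 nuclear subunit genes tested (73 lower) and -0.65 for mitochondrial mRNAs (13 of 13 lower), beside -0.02 for all genes. Without replicate 2 of WT spleen these became 0.04 and 0.26. Without replicate 1, 66 members were called, beside 22.1% of all genes in that fit. The interaction of genotype and tissue gave 0 of 121 members called (background 0%), and by DESeq2 0 (background 1.85%). Only Cox4i2 passed an unadjusted p of 0.05 (background 7.83%). Its counts were 2 and 0 in KO spleen, under the floor of 3, and 83 and 13 in KO tumor.

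Replicate 2 of WT spleen stood apart from the other spleen libraries throughout. It was the highest of the 8 libraries for 13 of 13 mitochondrial mRNAs and for 59 of 79 nuclear subunit genes: 32 of 37 in complex I, 5 of 8 in complex III, 10 of 15 in complex IV and 11 of 15 in complex V, but 1 of 4 in complex II. The share of all genes that were highest in this library was not counted, so these counts do not set the members apart. Relative to replicate 1 of WT spleen, the 75 nuclear subunit genes with at least 1 CPM had a median log2 ratio of 1.14 and mitochondrial mRNAs of 1.47, while all genes had -0.09. The 2 KO spleen libraries differed by -0.17 and 0.06 in the same classes. The sums of complexes I, III and IV were 8912, 2796 and 5390 CPM in replicate 2 and 4327, 1543 and 2221 CPM in replicate 1. The sums of complex II were 1044 and 1029 CPM, but its genes moved both ways. Their log2 ratios of replicate 2 to replicate 1 were 0.69 (Sdhb), 0.78 (Sdhc), 0.55 (Sdhd) and -1.035 (Sdha).

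This library differed from replicate 1 by gene length. Among all genes, the median log2 ratio of replicate 2 to replicate 1 was 1.14 for exonic lengths under 1000 bases, 0.57 from 1000 to 2000, -0.09 from 2000 to 4000, and -0.51 from 4000 to 8000. Nuclear subunit genes are short (median 1534 bases beside 3238 for all genes tested), and in the same bins their medians were 1.28 (20 genes), 1.20 (26 genes) and 0.73 (19 genes), with 0.99 for the 10 genes of 4000 bases or more. Some of the long members were lower in replicate 2. Ndufs1, the largest complex I subunit (8086 bases of exon), was at 98.9 and 46.7 CPM in the 2 WT spleen libraries, and Sdha, the flavoprotein of complex II (3883 bases), at 535 and 261 CPM. Atp5b (4237 bases) and Atp5a1 (3135 bases), the beta and alpha subunits of ATP synthase, had smaller log2 differences of -0.31 and -0.32. Relative to a trend on exonic length, the nuclear median in spleen went from -0.65 to -0.27, and that of WT tumor against spleen from -0.38 to -0.01. The mitochondrial median in spleen went from -0.65 to -0.15 and in WT tumor against spleen from -1.45 to -0.86. Cd4 was at 384 CPM in this library beside 875 to 1009 CPM in the other spleen libraries, and its macrophage and red cell marker sums (1560 and 1126 CPM) were the highest of spleen. Their part in these values was not tested.

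**Figure D5:**
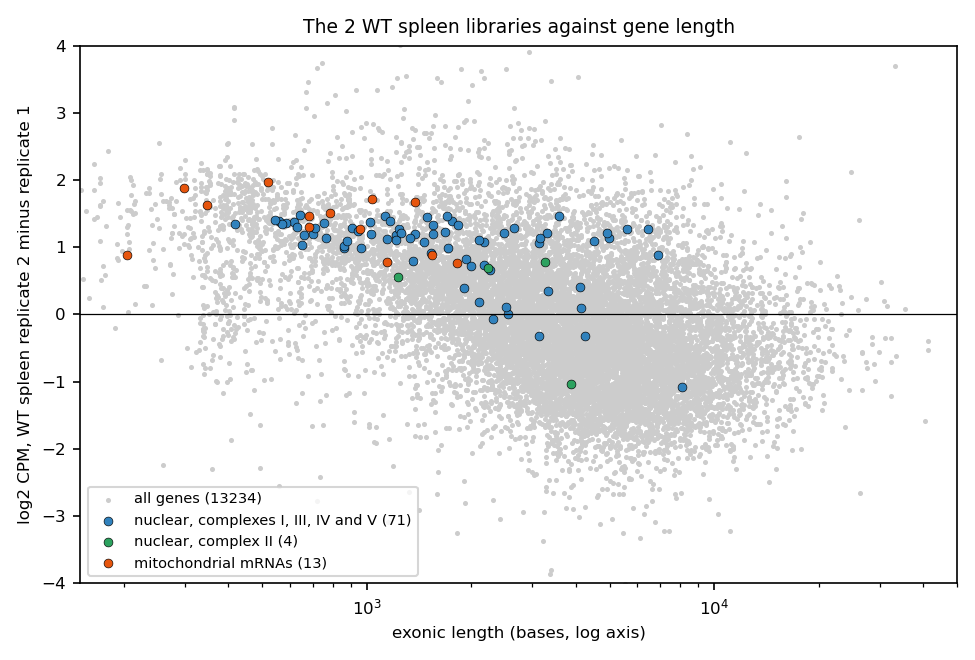
Log2 ratio of CPM in replicate 2 over replicate 1 of WT spleen against exonic length (bases, log axis) for 13234 genes with a mean of at least 1 CPM in spleen (gray), nuclear subunits of complexes I, III, IV and V (blue), complex II (green) and mitochondrial mRNAs (orange). The median of all genes lies above 0 for lengths under 2000 bases and below 0 for longer genes, with single genes on both sides. Mitochondrial mRNAs all lie above 0, and 22 genes lie outside the axis.

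The 14 mitochondrial tRNAs were counted at low levels, together 35.1 to 64.7 CPM in 7 libraries and 178 CPM in replicate 2 of WT spleen. In WT tumor against WT spleen their median log2 fold change was -1.45 (13 of 14 lower), and in KO it was -0.12 (10 of 14 lower). They are about 69 bases long, so these counts need not come from mature tRNAs. The 8 assembly factors of complex I had medians of -0.37 in WT and -0.10 in KO for the same comparisons. Ndufaf8 was at 29.1 to 65.4 CPM in spleen and 18.2 to 25.1 CPM in tumor, and Ndufaf1 at 28.82 to 37.29 CPM and 18.46 to 28.78 CPM, so both were lower in every tumor library, Ndufaf1 only narrowly.

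Genes that serve mitochondrial DNA and RNA were taken from lists outside these 121 genes. Of 22 genes of mitochondrial transcription and RNA handling tested, 0 were called in any comparison. Their median log2 fold changes were 0.01 in WT and -0.21 in KO for tumor against spleen. At an unadjusted p of 0.05, 2 were lower in WT (background 10.1%), and 2 were higher (background 17.4%) and 4 lower (background 13.7%) in KO. All 4 tumor libraries lay below all 4 spleen libraries for 4 of the 22 genes (Tfam, Tefm, Mterf1a and Mterf4) and above for 1 (Fastk), beside 11.9% and 14.1% of all genes. Tefm, the mitochondrial transcription elongation factor, was at 15.4 to 21.5 CPM in spleen and 7.995 to 9.90 CPM in tumor, with no overlap and log2 fold changes of -1.29 ± 0.50 in WT and -0.82 ± 0.30 in KO (SE, edgeR adjusted p = 0.178 and 0.151). Mterf1a, which binds a termination site in mitochondrial DNA, was at 7.27 to 10.2 CPM in spleen and 0.60 to 2.83 CPM in tumor (adjusted p = 0.125 and 0.0979), and it has a close paralog that could share reads. Both genes were below their spleen levels in every tumor library without being called.

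Of 10 mtDNA replication genes, 0 were called. Dguok, the mitochondrial deoxyguanosine kinase, was at 70.5 to 114 CPM in spleen and 29.8 to 46.7 CPM in tumor, and Tk2, the mitochondrial thymidine kinase, at 79.0 to 106 CPM and 31.4 to 71.3 CPM. These 2 of the 10 genes lay wholly below spleen in tumor and 0 lay wholly above, beside 11.9% and 14.1% of all genes. Of 10 nuclear regulators tested, 1 was called, beside 5.97% of all genes: Ppargc1a, a coactivator of mitochondrial biogenesis, was higher in WT tumor than in WT spleen (edgeR adjusted p = 0.00290). It was at 0.00 and 0.07 CPM in WT spleen and 16.5 and 8.16 in WT tumor, and at 0.00 and 0.20 CPM in KO spleen and 30.6 and 4.52 in KO tumor (adjusted p = 0.0743). Melanoma marker sums were 2077 and 1140 CPM in WT tumor and 3198 and 830 CPM in KO tumor, the same order as Ppargc1a within each pair, and their part was not tested.

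Among 37 assembly factors and electron carriers outside the rule, 17 TCA cycle genes and 81 mitochondrial ribosomal protein genes tested, 0 were called in any comparison of 2 groups. In WT and KO tumor against spleen the TCA cycle genes had medians of 0.58 and 0.39, the assembly and carrier genes -0.28 and 0.01, and the ribosomal protein genes -0.37 and 0.08. Cycs, the electron carrier cytochrome c, was at 106 to 200.2 CPM in spleen and 194 to 331 CPM in tumor, with a log2 fold change in KO of 1.38 ± 0.23 (SE, edgeR adjusted p = 0.0583). Cyc1, the heme subunit of complex III, was at 133 to 209 CPM and 171 to 234 CPM. For both, the overlap came from replicate 2 of WT spleen.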

How the data were processed

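RNA-seq counts of 8 libraries (4 groups of 2, grouped by the labels) were used. The authors deposited raw counts per gene, made, per the submitters' processing notes and the study's methods, with Trimmomatic 0.36, STAR 2.5.2b on GRCm38 and featureCounts of Subread 1.5.2 on unique reads in exons. The authors also deposited normalized counts, a signal equal to counts divided by a size factor (0.839 to 1.48), which went back to the deposited raw counts for 100% of values within a tolerance of 0.01. Strand use is not stated. Floors (3 counts) and counts cover counting error only, since reads carried no molecular identifiers.

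Each comparison was fitted over all genes on its 4 libraries with edgeR 4.0.16 (R 4.3.3, TMM, filterByExpr, quasi-likelihood test), calling genes with an adjusted p under 0.05 whose log2 fold change exceeded 1 in size, and the interaction on 8. DESeq2 1.42.0, other scalings, no filter, length and GC trends, blocks and leaving out libraries were alternatives. The fits were tested on simulated data. Library measures used exact permutation tests (SciPy 1.17.1), which ignored genotype when tissues were compared. Members, lists, motifs and named genes were chosen with earlier results of these data known. Named are the mitochondrial mRNAs, fixed subunits and isoforms, and in each comparison the 3 nuclear members higher and lower with the smallest p, not all of which needed values. Genes of the other lists, and members that separate the tissues, were named after their values were seen. In each group the 2 libraries differed beyond counting noise (chi-square of 41.2 to 384.2 for each degree of freedom).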

Additional observations from a re-analysis of the deposited data

Results flagged for a closer look

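Sdha, the flavoprotein of complex II, moved in opposite directions between KO and WT in the 2 tissues without overlap of libraries. The share of all genes that separate in this way was not counted, so the separation does not set Sdha apart. It was at 493 and 482 CPM in KO tumor and 521 and 527 CPM in WT tumor, but at 572 and 563 CPM in KO spleen and 535 and 261 CPM in WT spleen. The interaction of genotype and tissue was -0.62 on the log2 scale (edgeR, unadjusted p = 0.283), so the test of the difference itself did not pass. The low value of 261 CPM belongs to replicate 2 of WT spleen.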

How the results depend on the processing

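Library counts of 2 per group limited every comparison, and replicate 2 of WT spleen carried most of the dependence. For the number of members called, 0 in each comparison, other settings gave the following. In WT tumor against spleen, DESeq2 gave 2 (9.91% of all genes called), no filter on low counts 7 (7.28%), the replicate block 1 (8.91%), and the fit of both genotypes 1 (16.5%), and leaving out a library gave 0 to 19 (7.87% where 19). In KO tumor against spleen, DESeq2 and no filter each gave 2 (19.7% and 11.6%), a fit over all 8 libraries 1 (9.75%), and the fit of both genotypes 1, and leaving out a library gave 0 to 3 (19.7% where 3). In KO against WT spleen, leaving out a library gave 0 to 66 (22.1% where 66). In these fits the lone library of a group was assumed to vary like the others.

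Leaving out a library moved the median of nuclear subunits from -1.04 to 0.036 in KO against WT spleen and from -0.84 to 0.29 in WT tumor against spleen, with the sign changed only without replicate 2 of WT spleen. That of mitochondrial mRNAs in KO against WT spleen was 0.26 without that library. The median of mitochondrial mRNAs in KO tumor against spleen was -0.10 relative to a GC trend. The ratio of mitochondrial to nuclear counts, tumor minus spleen, was -0.69 with medians of log2 CPM and -0.59 with nuclear subunits under 1500 bases (exact permutation p = 0.0857 each). Leaving out a library gave -0.90 to -0.64, and for the mitochondrial share -0.98 to -0.59, where 4 against 3 cannot give an exact p below 0.0571. For KO minus WT in tumor the ratio was 0.17 to 0.64 with a library left out, and in spleen it was -0.20 with medians of log2 CPM. The cause was not tested in any of these cases. The alternative with mitochondrial rRNAs was not run.

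With the replicate number as a pair, sign flips over 4 pairs gave the same means, -0.76 for the ratio and -0.83 for the share, with an exact p of 0.125, the smallest possible. Same-numbered libraries deviated from their group means with correlations over genes of 0.25 (KO and WT tumor), 0.16 (KO and WT spleen), -0.02 (WT spleen and tumor) and -0.23 (KO spleen and tumor), so the numbers were not taken as pairs, and in KO a block with crossed numbers gave 2 members called (of 2934 genes called among 16933).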
